A study of Homo sapiens with 12 samples.

Results

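Oxidative phosphorylation genes were examined in HK2 cells, an immortalized human line of proximal tubular epithelium, across 12 RNA libraries. The members were the 115 of 58278 gene rows whose symbols name complexes I to V of the respiratory chain: those starting with NDUFA, NDUFB, NDUFC, NDUFS, NDUFV, UQCR, COX4I to COX8 or ATP5, SDHA to SDHD, CYC1, and the protein genes of mitochondrial DNA. Names ending in P and digits, which mark pseudogenes, were left out (154 names). Of the 115 members, 102 were nuclear and 13 mitochondrial. The nuclear rows held 76 subunit genes, 10 alternative isoform genes, 8 assembly factors of complex I, 3 antisense-named transcripts, 2 read-through transcripts, 2 genes that carry an ATP5 name without encoding a subunit, and a second row named SDHD. The filter on low counts left 111 of the 115 for testing, among them all 76 subunit genes and all 13 mitochondrial genes. ATP5L2, COX7B2, COX8C and the second SDHD row were not tested.

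The respiratory chain passes electrons from NADH (complex I) and succinate (complex II) through complexes III and IV to oxygen, and ATP synthase (complex V) uses the resulting proton gradient. Complexes I, III, IV and V are built from subunits of both genomes, whereas complex II is entirely nuclear. Nuclear subunits are translated in the cytosol and imported, while mitochondrial DNA is transcribed within the organelle from each strand as long precursors that are cut into single RNAs. Proximal tubular cells depend strongly on this machinery in the kidney, because solute transport consumes ATP and glycolysis contributes little there.

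The study asked how the short-chain fatty acids (SCFAs) propionate and butyrate act on injured tubular cells. Each of 6 groups had 2 libraries, labelled as biological replicates. Ctrl was untreated, and TN received TNF-α at 5 ng/mL for 3 h. In PRTN and BUTN, cells were given 15 mM propionate or 3 mM butyrate for 24 h and then TNF-α, and in TNPR and TNBU the same SCFAs followed TNF-α for 24 h. All 4 SCFA groups had thus also met TNF-α. The doses of the 2 SCFAs differed. No library without SCFA was held for a further 24 h after TNF-α, so for TNPR and TNBU the SCFA and the later time cannot be told apart. A general treatment note shared by the labels also names thapsigargin and JQ1, which no library's own label mentions. Everything below comes from 1 cell line.

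Libraries held 27269986 to 33851130 expected counts. A level is given as CPM, a count relative to its library's total after TMM scaling, and 3 counts, read as the limit of a count of 0, stood for 0.0867 to 0.112 CPM, for counting error only. Of 9 kidney epithelial markers, 7 were at 1 CPM or more in every library. Of 9 proximal tubule markers, 3 were, while LRP2, SLC34A1, MME and HNF4A stayed under 1 CPM everywhere. The summed proximal tubule markers lay at 183 to 228 CPM without SCFA and 75.2 to 96.5 CPM with SCFA, through GGT1, which alone had 179 to 221 CPM without and 59.9 to 74.0 CPM with SCFA. Most others of the list lay higher with SCFA, AQP1 for instance at 0.358 to 0.721 against 5.98 to 15.1 CPM. Of 8 leukocyte markers, CD68 alone reached 1 CPM in every library (23.1 to 48.8 CPM), and PTPRC did not exceed 0.152 CPM. The 7 endothelial and fibroblast markers summed to 44.7 to 53.8 CPM without and 157 to 214 CPM with SCFA, mostly through COL1A1 (39.6 to 48.5 against 146 to 202 CPM), while DCN lay lower with SCFA. These shifts ran alongside the SCFA results below, and their part in them was not tested. In bulk RNA, fewer cells of a kind and less RNA per cell cannot be told apart.

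TNF-α for 3 h left the oxidative phosphorylation genes without a call. In TN against Ctrl, limma called 0 of the 111 tested members, either beyond 1.5-fold or at any fold change, with the adjusted p held under 0.05, against a background over all 24342 genes of 0.764% up and 0.534% down (2.26% and 1.25% at any fold). At an unadjusted p under 0.05 there were 10 members, 3 higher and 7 lower, all nuclear subunits. The quasi-likelihood test of edgeR called 0 at any fold and DESeq2 called 1. The member with the lowest adjusted p was NDUFV2, a complex I subunit of the NADH-oxidising module. It had 47.5 and 45.5 CPM in Ctrl and 59.8 and 64.9 CPM in TN (log2 fold change 0.42, limma adjusted p = 0.0791). The median log2 fold change was -0.01 over the nuclear subunits and 0.08 over the mitochondrial genes.

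With SCFAs, the nuclear subunits split, and single subunits of the same complex moved in opposite directions. More were called down than up with TMM scaling, which turned to more up than down in PRTN, TNPR and TNBU with library size alone. The 4 SCFA contrasts share the TN libraries, so their values are given side by side. At a fold change over 1.5, the numbers of the 76 nuclear subunits called up and down were 5 and 11 (PRTN), 1 and 11 (BUTN), 6 and 11 (TNPR), and 4 and 11 (TNBU). Over all genes tested, the shares called up and down were 23.9% and 16.7% (PRTN), 23.1% and 14.8% (BUTN), 24.9% and 16.9% (TNPR), and 25% and 16.5% (TNBU). These shares are also the background for the counts by complex below. The subunits' down calls (14.5% in each contrast) were thus near or under the background, and their up calls (6.58%, 1.32%, 7.89% and 5.26%) were under it. Every subunit had a mean of at least 10 CPM, and the 10193 genes at that level had 18%, 15.3%, 18.1% and 16.9% called up and 23.2%, 21%, 24.8% and 24.7% called down, in the same order. At any fold change, 18, 13, 19 and 17 subunits were called up and 31, 38, 33 and 33 down, against 30.6%, 29.7%, 31.6% and 31.3% of all genes up and 25.8%, 25.4%, 26% and 26% down.

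The medians of the log2 fold changes over the 76 subunits were -0.13, -0.19, -0.07 and -0.16 in PRTN, BUTN, TNPR and TNBU, where the medians of the 10193 genes at that level were -0.11, -0.13, -0.12 and -0.14 and those of all genes tested were 0.09, 0.08, 0.12 and 0.09. These directions depended on the scaling. With library size alone, which moved the median of all genes by 0.153 to 0.196, the subunits' medians became 0.02, -0.04, 0.10 and 0.04, and the calls up and down became 11 and 5, 4 and 6, 13 and 6, and 9 and 4. Over all genes the shares up and down were then 27.9% and 12.9%, 27.03% and 10.9%, 29.7% and 12.9%, and 30.1% and 11.7%. When a library of the groups compared was left out, the share of all genes called up was lower in each SCFA contrast. The subunits' up calls also changed in these fits. Without TN replicate 1 they numbered 2 in PRTN, 1 in TNPR and 2 in TNBU. Without TNPR replicate 2 there were 3 in TNPR, and in TNBU there were 7 without TNBU replicate 1 and 2 without TNBU replicate 2. In BUTN there were 2 without TN replicate 2.

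Across libraries, 16 of the 76 nuclear subunits lay higher in all 8 SCFA libraries than in any of the 4 others, and 32 lay lower in all 8. These are 21.1% and 42.1%, where all genes tested had 27.6% and 23.4%, and the genes with a mean of at least 10 CPM had 28.4% and 40.2%. Scaled by library size alone, 28 lay higher and 23 lower. As shares of the summed counts of the 76 genes, which need no scaling, 29 lay higher, 23 lower and 24 overlapped. Subunits lying higher and others lying lower were thus present with TMM scaling and with library size alone, in differing proportions. With TMM the share lying lower was near that of the genes with a mean of at least 10 CPM. Shares add to a whole, so some fall where others rise, and they cannot show a split by themselves. No figures for all genes are given beside the counts by library size alone or by shares.

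**Figure D1:**
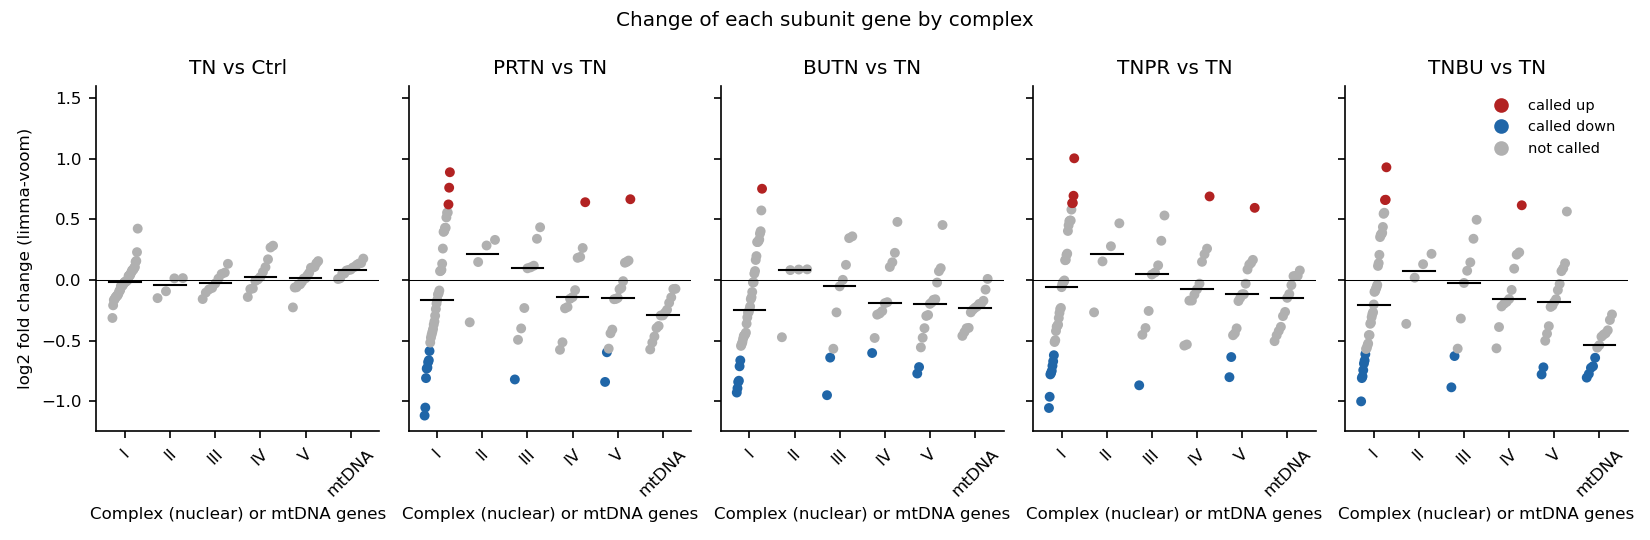
Log2 fold change of each subunit gene (y axis) by complex and by genome (x axis), in 1 panel for TN against Ctrl and 1 for each SCFA group against TN, after TMM scaling; each point is a gene, in colour where it was called beyond 1.5-fold, and bars mark medians. Nuclear complex I reached from -1.12 (NDUFA6) to 1.00 (NDUFB3), and the mitochondrial genes in TNBU were all below 0, from -0.81 to -0.28. With library size alone the median of all genes lies 0.153 to 0.196 higher in the SCFA panels, and the nuclear medians then lie between -0.04 and 0.10.

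Complex I, which oxidises NADH, held the nuclear subunit that rose most in each SCFA contrast and, except in BUTN, where UQCRFS1 of complex III fell further, the one that fell most. Of its 37 nuclear genes, 3 were called up and 8 down in PRTN, 1 and 6 (BUTN), 4 and 8 (TNPR), and 3 and 7 (TNBU). NDUFA6 (ENSG00000184983.9, chr22:42085526-42090884, minus strand, GRCh38), an accessory subunit of the LYR-motif family, had 40.9 and 38.8 CPM (Ctrl), 40.4 and 43.0 (TN), 19.2 and 19.2 (PRTN), 21.6 and 22.1 (BUTN), 20.3 and 19.7 (TNPR), and 20 and 21.6 (TNBU). The 8 SCFA libraries did not overlap the 4 others. NDUFA6 fell by 1.12, 0.93, 1.06 and 1.00 on the log2 scale against TN in PRTN, BUTN, TNPR and TNBU (SE 0.07 each; limma adjusted p = 6.34e-08, 3.27e-07, 9.74e-08 and 1.89e-07). NDUFB3 (ENSG00000119013.8, chr2:201071433-201085750, plus strand), an accessory subunit of the membrane arm, moved the other way. It had 48.6 and 42.7 CPM (Ctrl), 47.0 and 47.5 (TN), 85.5 and 89.6 (PRTN), 73.6 and 86.0 (BUTN), 89.8 and 100.1 (TNPR), and 87.2 and 92.9 (TNBU). Its lowest SCFA library thus stood well above its highest library without SCFA. The rises were 0.89, 0.75, 1.00 and 0.93 (SE 0.09; limma adjusted p = 3.47e-06, 1.85e-05, 1.1e-06 and 2.56e-06). The count ratio of NDUFB3 to NDUFA6, which no scaling can change, was 1.10 to 1.19 without SCFA and 3.40 to 5.07 with SCFA. This pair, like the other pairs of genes below, was chosen after its values were seen. NDUFA6 overlaps another gene row on its own strand (ENSG00000270083), and NDUFB3 overlaps HYCC2 on the opposite strand. How reads were divided there was not tested.

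The promoters of these 2 genes are shown as the DNA beside the opposite changes, from 250 bases before the start site to 30 after it, as given by RefSeq for GRCh38.p14. Capitals mark CG dinucleotides. NDUFA6 is read from chr22:42090743-42091022 on the minus strand and NDUFB3 from chr2:201071751-201072030 on the plus strand.
NDUFA6: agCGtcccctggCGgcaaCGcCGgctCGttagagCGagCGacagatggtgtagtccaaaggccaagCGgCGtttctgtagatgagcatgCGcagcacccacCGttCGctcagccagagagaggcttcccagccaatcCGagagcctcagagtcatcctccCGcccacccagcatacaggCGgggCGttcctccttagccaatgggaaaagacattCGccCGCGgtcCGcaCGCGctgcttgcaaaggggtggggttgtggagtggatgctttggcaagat
NDUFB3: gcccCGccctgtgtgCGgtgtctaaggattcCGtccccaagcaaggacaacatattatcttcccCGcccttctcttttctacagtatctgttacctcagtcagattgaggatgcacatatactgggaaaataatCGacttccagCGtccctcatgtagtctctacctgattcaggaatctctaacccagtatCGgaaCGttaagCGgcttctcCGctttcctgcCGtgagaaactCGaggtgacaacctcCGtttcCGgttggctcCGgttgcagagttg
The window of NDUFA6 held 22 CG dinucleotides and that of NDUFB3 held 15, where the median over 27305 promoters was 15. The methylation and occupancy of these windows were not measured.

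Among the accessory subunits of complex I, NDUFB2 fell nearly as far as NDUFA6. It lay at 38.9 to 42.6 CPM without SCFA and 19.6 to 25.4 CPM with SCFA (fell by 1.05, 0.89, 0.96 and 0.74 on the log2 scale, SE 0.07; limma adjusted p = 1.42e-07, 6.39e-07, 2.76e-07 and 2.68e-06). With library size alone its fall in TNBU was 0.55, which kept the direction but lay under the 1.5-fold limit. NDUFA9, which sits where the matrix and membrane arms meet, had 69.5 to 89.2 CPM without and 45.6 to 50.5 CPM with SCFA. NDUFA1 and NDUFC1, small subunits of the membrane arm, fell by 0.66 to 0.78 and by 0.61 to 0.71. With library size alone these falls kept their direction, but NDUFC1 was under the 1.5-fold limit in each contrast, NDUFA1 in PRTN, BUTN and TNBU, and NDUFA9 in TNPR. Going up, NDUFA11, a further membrane-arm subunit, had 41.6 to 49.5 CPM without and 66.5 to 79.7 CPM with SCFA. Its log2 fold changes were 0.76, 0.57, 0.69 and 0.66, of which the value in BUTN was under the 1.5-fold limit. NDUFB6 was called up in PRTN and TNPR (0.62 and 0.63) and NDUFC2 in TNPR and TNBU (0.64 and 0.66). Without TN replicate 1 the calls of NDUFA11 in TNPR and TNBU, of NDUFB6 in both contrasts and of NDUFC2 in TNPR were lost, and with library size alone NDUFA11 was called in BUTN too, NDUFB6 in TNBU and NDUFC2 in PRTN. Reads of NDUFC2 can be shared with its read-through transcript NDUFC2-KCTD14, which had 15.4 to 22.3 CPM and no call.

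The 7 nuclear core subunits of complex I, those that carry its redox centres, were 0 up in each contrast and 1, 1, 2 and 2 down at 1.5-fold. NDUFS3 was called down in each, with 37.97 to 42.5 CPM without and 21.4 to 25.4 CPM with SCFA. NDUFS1, the largest subunit, had 182 to 191 CPM without and 108 to 128 CPM with SCFA, and passed the 1.5-fold limit in TNPR and TNBU (-0.67 and -0.66). NDUFV1, which binds NADH, went the other way at any fold change, from 119 to 141 CPM to 154 to 184 CPM (0.55, 0.32, 0.49 and 0.39; limma adjusted p = 7.87e-06, 0.000842, 2.32e-05 and 0.000182). The calls of NDUFS1 in both contrasts and of NDUFS3 in PRTN were lost with library size alone, and NDUFV1 was then called in PRTN and TNPR. NDUFV1 and NDUFS1 thus changed in opposite directions, although their proteins stand side by side in the matrix arm.

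**Figure D2:**
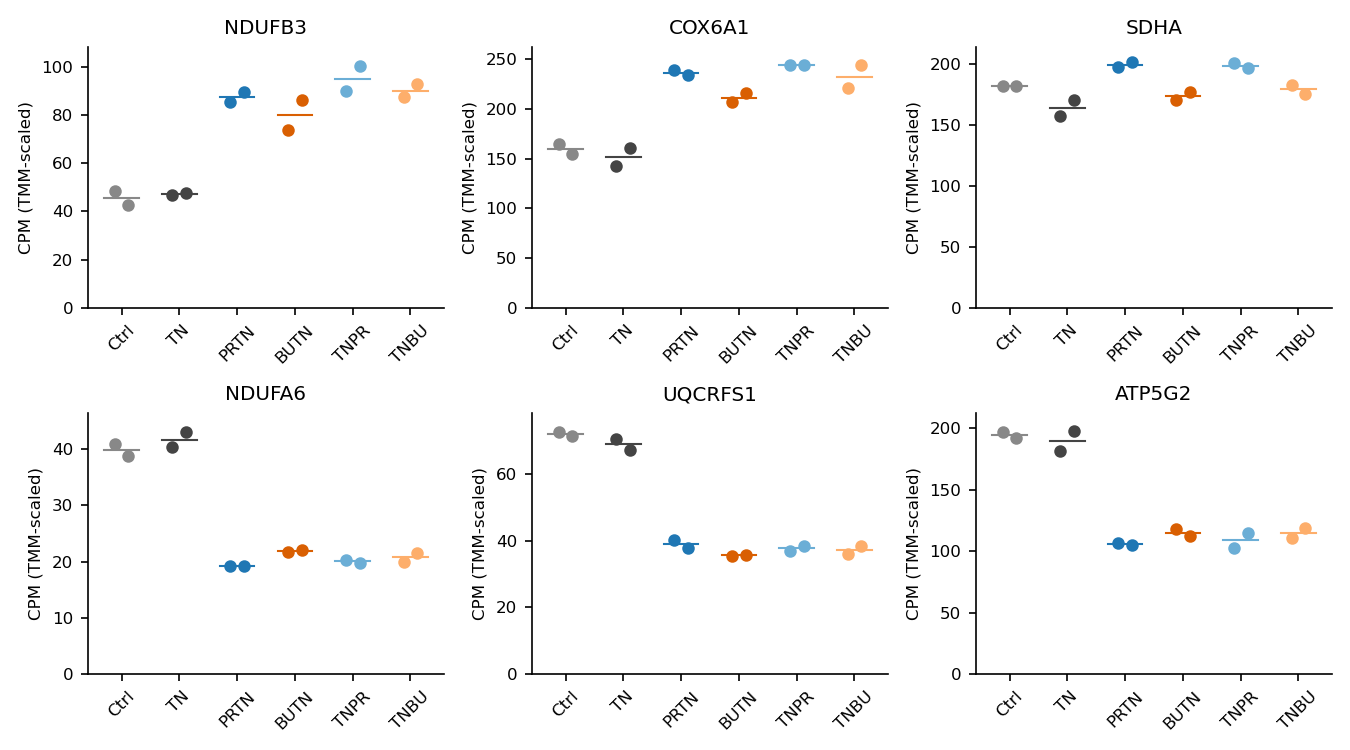
CPM (y axis, linear) in each of the 12 libraries (x axis, by group) for 6 subunits of complexes I to V; each point is a library and bars mark group means. NDUFB3 and COX6A1 lie higher and NDUFA6, UQCRFS1 and ATP5G2 lower in all 8 SCFA libraries, whereas SDHA overlaps between libraries with and without SCFA (171 to 202 against 158 to 182 CPM).

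Complex II, succinate dehydrogenase, had 0 of its 4 genes called at 1.5-fold by limma in any SCFA contrast with TMM scaling, and 1 with library size alone, SDHB in TNPR (0.64). At any fold change 3, 1, 3 and 2 of the 4 were called. SDHA, the flavoprotein that oxidises succinate, had 182 and 182 CPM (Ctrl), 158 and 170.2 (TN), 198 and 202 (PRTN), 171 and 177 (BUTN), 201 and 197 (TNPR), and 183 and 176 (TNBU). The propionate libraries were the highest and the butyrate libraries overlapped Ctrl. Against TN its log2 fold changes were 0.28, 0.09, 0.28 and 0.13 (limma adjusted p = 0.00076, 0.207, 0.000879 and 0.0655). SDHB, the iron-sulfur subunit, was at 78.7 to 86.6 CPM without and 87.4 to 119 CPM with SCFA (0.33, 0.08, 0.47 and 0.22; adjusted p = 0.000708, 0.312, 3.96e-05 and 0.0124). Of the membrane anchors, SDHC had 94.3 to 103 CPM without and 101 to 122 CPM with SCFA (0.15, 0.09, 0.15 and 0.02, lowest adjusted p = 0.142). SDHD had 121 to 137 CPM without and 85.6 to 102 CPM with SCFA, a fall of 0.35, 0.47, 0.27 and 0.36 at adjusted p = 0.000313, 3.02e-05, 0.0022 and 0.00025. The 4 subunits of this complex therefore did not share a direction.

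In complex III, 0 of 9 genes were called up, and 1, 2, 1 and 2 were called down. UQCRFS1 (ENSG00000169021.5, chr19:29205320-29213151, minus strand), the Rieske iron-sulfur protein that takes electrons from ubiquinol, had 72.6 and 71.3 CPM (Ctrl), 70.4 and 67.1 (TN), 40.2 and 37.7 (PRTN), 35.5 and 35.6 (BUTN), 37.0 and 38.3 (TNPR), and 36.0 and 38.4 (TNBU). The SCFA libraries formed a narrow range under the others. UQCRFS1 fell by 0.82, 0.95, 0.87 and 0.89 (SE 0.06 to 0.07; limma adjusted p = 3.12e-07, 1.27e-07, 1.94e-07 and 2.09e-07). CYC1, cytochrome c1, fell at any fold change, from 114 to 135 CPM to 78.6 to 92.2 CPM (0.40, 0.57, 0.45 and 0.57; adjusted p = 0.000139, 8.57e-06, 4.95e-05 and 8.21e-06). UQCRC2, a core protein, passed the 1.5-fold limit in BUTN and TNBU (-0.64 and -0.63), and in neither with library size alone (-0.49 and -0.43). The small subunits UQCR10 and UQCR11 were higher at any fold change, UQCR10 by 0.36 to 0.53 and UQCR11 by 0.32 to 0.35. UQCR10 was called in PRTN, TNPR and TNBU with library size alone. The count ratio of UQCRQ, a small subunit with no call, to UQCRFS1 was 0.604 to 0.795 without and 1.36 to 1.53 with SCFA.

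The promoter of UQCRFS1 is shown because it held a match to the 10-base site of NRF1, a transcription factor of respiratory genes, with 1 base of the site left free. Such matches were in 2 of the 12 promoters of subunits called down and in 12 of the 46 without a call. It is read from chr19:29213122-29213401 on the minus strand (RefSeq, GRCh38.p14), with CG dinucleotides again in capitals.
UQCRFS1: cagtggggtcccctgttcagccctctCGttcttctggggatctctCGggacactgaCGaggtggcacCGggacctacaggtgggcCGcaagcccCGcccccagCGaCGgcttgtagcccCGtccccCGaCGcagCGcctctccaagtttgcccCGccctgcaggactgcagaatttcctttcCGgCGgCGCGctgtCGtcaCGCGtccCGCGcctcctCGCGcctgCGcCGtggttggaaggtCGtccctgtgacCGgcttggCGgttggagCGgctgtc

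Complex IV, cytochrome c oxidase, had 1, 0, 1 and 1 of its 11 nuclear genes called up and 0, 1, 0 and 0 called down. COX6A1, the common form of subunit 6A, had 165 and 154 CPM (Ctrl), 142 and 161 (TN), 239 and 233 (PRTN), 206 and 215 (BUTN), 243 and 244 (TNPR), and 220.2 and 244 (TNBU). It was higher in each SCFA library than in any other, by 0.64, 0.48, 0.69 and 0.62 against TN (SE 0.07; limma adjusted p = 6.3e-06, 9.29e-05, 3.18e-06 and 9.84e-06), and passed the 1.5-fold limit except in BUTN. Without TN replicate 1 it was under the limit in PRTN, TNPR and TNBU (0.52, 0.57 and 0.51), and with library size alone it was called in BUTN too (0.63). COX4I1, the common form of subunit 4, had 356 to 387 CPM without and 238 to 265 CPM with SCFA. Its fall of 0.58, 0.60, 0.54 and 0.56 was close to the 1.5-fold limit and passed it in BUTN, though not with library size alone (-0.45) or without TN replicate 2. COX7B and COX7C passed at neither rule. NDUFA4, which carries a complex I name but is a subunit of complex IV, had 91.2 to 133 CPM without and 123 to 142 CPM with SCFA and was not called.

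Complex V was the complex whose summed nuclear level lay lower in all 8 SCFA libraries under both TMM scaling and library size alone. The 15 genes summed to 3179.9 to 3358 CPM without and 2448 to 2723 CPM with SCFA, and with library size alone to 2940.5 to 3199 and 2499 to 2832 CPM. This rested on ATP5B, since the other 14 genes summed to 1969 to 2134 CPM without and 1860.3 to 2132 CPM with SCFA by library size alone, which overlap, and to 2100.4 to 2253 and 1822 to 2049.8 CPM with TMM. Complexes I and III, lower with TMM, overlapped with library size alone, and complexes II and IV overlapped under both. Calls up and down in complex V were 1 and 2, 0 and 2, 1 and 2, and 0 and 2. ATP5B (ENSG00000110955.8), the catalytic beta subunit, had 1117 and 1113 CPM (Ctrl), 1051 and 1085 (TN), 702 and 709.8 (PRTN), 626 and 625 (BUTN), 701 and 673 (TNPR), and 649 and 597 (TNBU). It fell by 0.60, 0.77, 0.64 and 0.78 (SE 0.05; limma adjusted p = 5.11e-07, 7.85e-08, 2.89e-07 and 6.38e-08). Scaled by library size alone, it was called in BUTN and in no other SCFA contrast (-0.44, -0.46 and -0.58 in PRTN, TNPR and TNBU). ATP5A1, whose alpha subunit alternates with beta in the same ring, had log2 fold changes of -0.07, -0.20, -0.12 and -0.22 (limma adjusted p = 0.253, 0.00325, 0.0469 and 0.0014).

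The genes ATP5G1, ATP5G2 and ATP5G3 encode the same mature c subunit of the rotor of ATP synthase, and they did not move alike. ATP5G2 had 181 to 197 CPM without and 103 to 119 CPM with SCFA (fell by 0.84, 0.72, 0.80 and 0.72, SE 0.07; limma adjusted p = 4.69e-07, 2.15e-06, 6.81e-07 and 1.93e-06), and its calls in BUTN and TNBU were lost with library size alone (-0.57 and -0.53). ATP5G1 had log2 fold changes of -0.15, -0.30, -0.03 and -0.08, and ATP5G3 of -0.08, -0.19, -0.15 and -0.21. Neither passed the 1.5-fold limit. ATP5D, the delta subunit, was called up in PRTN and TNPR (0.67 and 0.59), with 33.8 to 43.3 CPM without and 48.1 to 59.1 CPM with SCFA. Both calls were lost without TN replicate 1 (0.52 and 0.45), and with library size alone ATP5D was called in BUTN and TNBU too. The count ratio of ATP5D to ATP5G2 was 0.187 to 0.226 without and 0.430 to 0.556 with SCFA.

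The largest change of any member was in COX6B2 (ENSG00000160471.12, chr19:55349306-55354719, minus strand), the form of cytochrome c oxidase subunit 6B known chiefly from testis. Without SCFA it had 0.309 and 0.287 CPM in Ctrl and 0.447 and 0.287 (TN) (8 to 12 counts). With SCFA it reached 13.4 and 14.4 CPM (PRTN), 16.5 and 16.3 (BUTN), 13.5 and 17.4 (TNPR), and 13.03 and 17.9 in TNBU (372 to 564 counts). Every SCFA library stood far above every other. The fold changes against TN were 37.0, 43.7, 40.7 and 40.8 (log2 5.21, 5.45, 5.35 and 5.35, SE 0.49; limma adjusted p = 1.64e-06, 1.31e-06, 1.21e-06 and 1.35e-06). A read-through transcript on the same strand (ENSG00000267706) overlaps this gene. It was at 0 in the 4 libraries without SCFA and at 0 to 1.41 CPM with SCFA, and how reads were divided between them was not tested.

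COX6B1, the ubiquitous form of the same subunit (ENSG00000126267.8, chr19:35648323-35658782, plus strand), remained at the higher level per length. It had 99.1 to 112 CPM without and 80.1 to 98.5 CPM with SCFA (-0.23, -0.29, -0.17 and -0.16; adjusted p = 0.0307, 0.0116, 0.101 and 0.131). Of the counts of both genes together, COX6B2 held 0.262% to 0.449% without and 12.8% to 17.1% with SCFA. Per kilobase of exon, group means of COX6B2 were 0.0801 and 0.0986 CPM in Ctrl and TN and 3.74 to 4.41 CPM in the SCFA groups, while those of COX6B1 ran from 62.5 to 79.9 CPM over the 6 groups. Exon length here joins the exons of all annotated transcripts, 3720 bases for COX6B2 and 1369 for COX6B1. The transcripts expressed can be shorter, so the gap per kilobase depends on this choice.

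The promoters of the 2 forms are printed to set the DNA of the rising gene beside that of its common partner, with CG dinucleotides in capitals. COX6B2 is read from chr19:55354690-55354969 on the minus strand and COX6B1 from chr19:35648073-35648352 on the plus strand (RefSeq, GRCh38.p14).
COX6B2: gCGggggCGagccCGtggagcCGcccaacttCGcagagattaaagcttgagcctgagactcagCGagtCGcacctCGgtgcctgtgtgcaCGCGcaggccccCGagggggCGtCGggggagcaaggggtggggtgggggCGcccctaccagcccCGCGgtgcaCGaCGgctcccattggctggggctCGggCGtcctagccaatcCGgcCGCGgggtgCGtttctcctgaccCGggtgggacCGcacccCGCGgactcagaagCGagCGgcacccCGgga
COX6B1: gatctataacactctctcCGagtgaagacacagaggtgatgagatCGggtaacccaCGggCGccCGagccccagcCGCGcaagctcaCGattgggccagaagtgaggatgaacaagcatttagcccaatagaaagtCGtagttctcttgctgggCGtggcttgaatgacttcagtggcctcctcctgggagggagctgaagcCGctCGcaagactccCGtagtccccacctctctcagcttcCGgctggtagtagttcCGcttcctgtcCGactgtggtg
COX6B2 had 31 CG dinucleotides in its 280 bases, a number reached by 19.4% of the 27305 promoters, and COX6B1 had 16, reached by 48.7%.

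**Figure D3:**
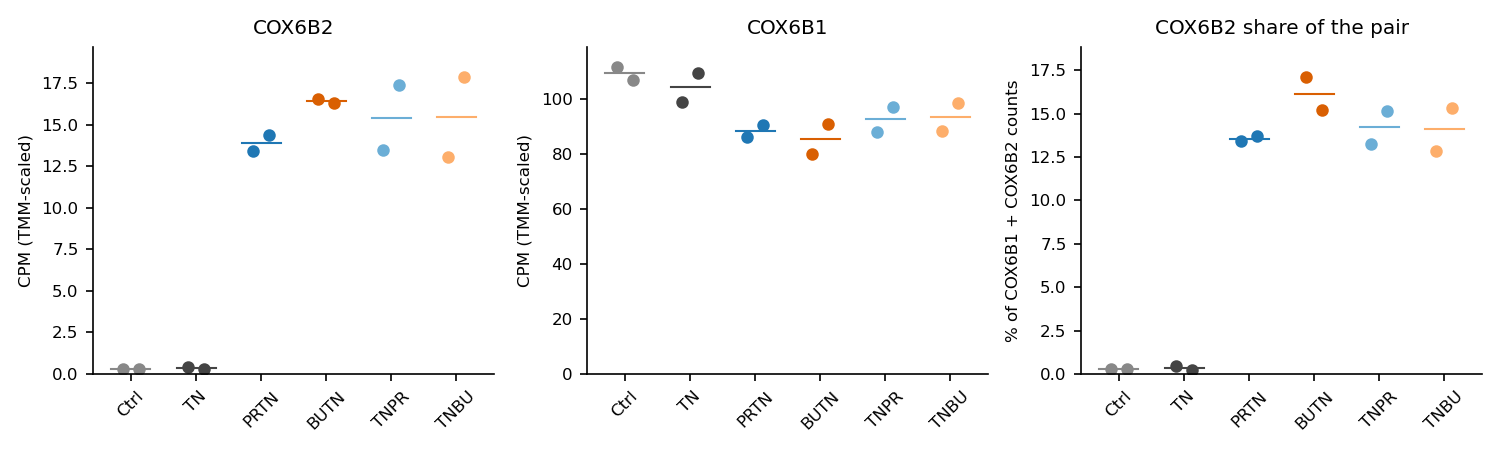
Levels of COX6B2 and of COX6B1 (y axes, CPM, linear, each from 0 to its own limit) and the percent of their joint counts held by COX6B2, in each of the 12 libraries (x axes, by group); each point is a library and bars mark group means. COX6B2 goes from 0.287 to 0.447 CPM without SCFA to 13.03 to 17.9 CPM with SCFA, while COX6B1 lies between 80.1 and 112 CPM, and the share goes from at most 0.449% to at least 12.8%.

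The other isoform genes, except COX7A2L, were at low levels. COX6A2, the muscle form of subunit 6A, had 12.7 to 18.4 counts without and 0 to 8 counts with SCFA, and was called down in each contrast (limma adjusted p = 0.000874, 0.000277, 0.00466 and 0.00828). DESeq2 did not keep the call in TNPR and TNBU. COX4I2 had 0 counts in the 4 libraries without SCFA and 1 to 3 with SCFA, which is at or under the limit of 3 counts, so no fold change is given although limma's adjusted p was 0.014 to 0.0658 and under the threshold except in TNPR. DESeq2 did not call it in PRTN, BUTN or TNBU. COX7A1, NDUFA4L2 and UQCRHL, each at less than 1 CPM, did not pass the test, and COX7B2 had 0 counts in each library. COX7A2L, which shares its family name with a complex IV subunit but acts in joining complexes III and IV into supercomplexes, had 63.8 to 73.7 CPM without and 87.3 to 111 CPM with SCFA, and passed the test at any fold change (0.52, 0.34, 0.57 and 0.49; adjusted p = 5.24e-05, 0.00181, 2.47e-05 and 9.55e-05). With library size alone it also passed the 1.5-fold limit in PRTN, TNPR and TNBU.

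Of the 8 assembly factors NDUFAF1 to NDUFAF8, which help to build complex I without staying in it, 0 were called up and 2, 3, 2 and 2 were called down. Over all genes tested, 16.7%, 14.8%, 16.9% and 16.5% were called down. Among the genes with a mean of at least 10 CPM these shares were 23.2%, 21%, 24.8% and 24.7%. NDUFAF5 had 20.8 and 19.3 CPM (Ctrl), 20.7 and 20.2 (TN), 10.9 and 10.7 (PRTN), 10.8 and 11.1 (BUTN), 10.5 and 10.2 (TNPR), and 9.56 and 10.6 (TNBU). The SCFA libraries did not overlap the others, and NDUFAF5 fell by 0.91, 0.90, 0.98 and 1.02 (SE 0.08 to 0.09; limma adjusted p = 1.39e-06, 1.87e-06, 8.1e-07 and 8.61e-07). NDUFAF4 had 18.6 to 22.6 CPM without and 10.98 to 13.1 CPM with SCFA and fell by 0.76 to 0.93. NDUFAF6 fell by 0.48, 0.61, 0.50 and 0.56, past the 1.5-fold limit in BUTN, a call lost without TN replicate 1 and with library size alone. NDUFAF2, NDUFAF3, NDUFAF7 and NDUFAF8 had log2 fold changes between -0.21 and 0.31, and in TNPR NDUFAF2 and NDUFAF7 passed at any fold (0.31 and 0.23). NDUFAF1 passed at any fold in PRTN and TNPR (-0.40 and -0.44).

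Among the rows named for a subunit gene without encoding one, NDUFA6-AS1, now NDUFA6-DT, rose where NDUFA6 fell. It starts 161 bases from the start of NDUFA6 and runs the other way (42090933 on the plus strand against 42090772 on the minus strand of chromosome 22). It had 0.773 to 1.30 CPM without and 1.47 to 2.20 CPM with SCFA (1.30, 1.06, 0.94 and 1.21; limma adjusted p = 0.00055, 0.00289, 0.00628 and 0.00115). In TNPR the call was lost without TN replicate 2. NDUFB2-AS1 fell with NDUFB2, from 9.72 to 15.8 counts to 2.37 to 5.56 counts (adjusted p = 0.00747, 0.0039, 0.00247 and 0.0313). DESeq2 called it in TNPR alone. This pair overlaps on opposite strands, and since the strand setting of the counting was not given in the sources used here, their reads cannot be told apart. NDUFV2-AS1 and the read-through rows ATP5J2-PTCD1 and NDUFC2-KCTD14 were not called. The names ATP5S and ATP5SL belong to genes now called DMAC2L and DMAC2. ATP5S was not called, and ATP5SL fell by 0.31 to 0.49 at any fold.

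The 13 protein genes of mitochondrial DNA were called in the downward direction alone, and their level varied widely between replicates. Their summed level was 77579 and 65413 CPM (Ctrl), 75375 and 73303 (TN), 63099 and 64449 (PRTN), 67091 and 63717 (BUTN), 77888 and 62037 (TNPR), and 47356 and 61520.5 (TNBU). TNPR replicate 1 was the highest library of all and TNBU replicate 1 the lowest, so both groups given SCFA after TNF-α were wide. The summed level of the 76 nuclear subunits was 8119.6 to 8677 CPM without and 6930.4 to 7782 CPM with SCFA, which did not overlap. This separation rested on ATP5B, the most abundant of them. Without ATP5B the sums with and without SCFA overlapped under TMM scaling too. As plain percentages of all counts, the nuclear subunits held 0.708% to 0.826% over the 12 libraries, with overlap between libraries with and without SCFA, and the mitochondrial genes held 4.96% to 8.04%.

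Called at 1.5-fold, 0, 0, 0 and 5 of the 13 mitochondrial genes were down in PRTN, BUTN, TNPR and TNBU, and 0 were up in each, where 16.7%, 14.8%, 16.9% and 16.5% of all genes tested were down. At any fold change, 6, 4, 6 and 12 were down by limma, 6, 4, 6 and 11 by edgeR and 7, 2, 6 and 12 by DESeq2, and at an unadjusted p under 0.05 there were 8, 5, 6 and 13. In TNBU the 5 genes were MT-ND1, MT-ND2 and MT-ND6 of complex I and MT-ATP6 and MT-ATP8 of complex V, with log2 fold changes of -0.73, -0.71, -0.64, -0.78 and -0.81 (limma adjusted p = 0.000477, 0.000109, 0.000516, 0.000161 and 0.000457). Their direction held with library size alone, but 1 call was then left, and 2 with library size computed without mitochondrial genes. Without TNBU replicate 2, 11 genes were called. In TNPR there were 4 without TNPR replicate 1 and 1 without TN replicate 2, and in PRTN 2 without TN replicate 2 and 1 without PRTN replicate 1.

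MT-ATP6 and MT-ATP8, subunits of ATP synthase, were the 2 mitochondrial genes whose 8 SCFA libraries lay entirely under the 4 others, as did 23.4% of all genes tested. MT-ATP6 had 5764 and 4852 CPM (Ctrl), 5955 and 5592 (TN), 3964 and 4105 (PRTN), 4433 and 4139.8 (BUTN), 4776 and 3693 (TNPR), and 2982 and 3805 (TNBU). TNPR replicate 1 lay just under the lower Ctrl library, and with library size alone 0 of the 13 genes were separated in this way. MT-ATP6 was lower at any fold change in each contrast (-0.52, -0.43, -0.46 and -0.78; limma adjusted p = 0.00305, 0.0097, 0.00646 and 0.000161), as was MT-ATP8 (-0.57, -0.40, -0.51 and -0.81; 0.00459, 0.034, 0.00967 and 0.000457). These 2 genes overlap in the mitochondrial genome (8527 to 9207 and 8366 to 8572), as do MT-ATP6 with MT-CO3 and MT-ND4 with MT-ND4L, so reads from the shared bases cannot be assigned.

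The remaining mitochondrial genes of complex I differed in size of change. In PRTN, BUTN, TNPR and TNBU the log2 fold changes were -0.47, -0.40, -0.42 and -0.73 for MT-ND1 and -0.38, -0.46, -0.30 and -0.71 for MT-ND2, each with an adjusted p under the threshold. For MT-ND3 they were -0.29, -0.22, -0.26 and -0.45 and passed except in BUTN. MT-ND4 (-0.19, -0.25, 0.03 and -0.44), MT-ND4L (-0.29, -0.27, -0.04 and -0.47), MT-ND5 (-0.25, -0.17, -0.12 and -0.54) and MT-ND6 (-0.27, -0.20, -0.15 and -0.64) passed in TNBU and in no other contrast against TN. limma and edgeR called 0 of the 13 genes between TNBU and BUTN and between TNPR and TNBU, and DESeq2 called 3 and 2 at any fold.

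Mitochondrial genes of complexes III and IV also differed in size of change. MT-CYB, cytochrome b, had log2 fold changes of -0.07, -0.08, 0.08 and -0.33, of which the last passed. MT-CO1, the catalytic subunit of cytochrome c oxidase, had -0.07, 0.01, 0.03 and -0.28 and passed in none (lowest adjusted p = 0.0706). MT-CO2 (-0.14, -0.23, 0.03 and -0.42) passed in TNBU, and MT-CO3 (-0.40, -0.19, -0.39 and -0.56) passed except in BUTN.

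The ratio of summed mitochondrial to summed nuclear subunit counts, which needs no scaling, was 8.95 and 7.96 (Ctrl), 9.28 and 8.45 (TN), 8.36 and 8.54 (PRTN), 9.68 and 8.79 (BUTN), 10.6 and 7.97 (TNPR), and 6.66 and 8.30 (TNBU). The SCFA libraries spanned 6.66 to 10.6 and enclosed the 7.96 to 9.28 of the others, and the SD within groups was 0.998. No shift of this ratio with SCFA was thus detectable beyond the spread between replicates. The median log2 fold change of the mitochondrial genes minus that of the nuclear subunits was 0.09 in TN against Ctrl. In PRTN, BUTN, TNPR and TNBU it was -0.16, -0.03, -0.08 and -0.38. In TNPR it was -0.35 without TNPR replicate 1 and 0.17 without TNPR replicate 2. A related measure is the median log2 CPM of the mitochondrial genes minus that of the nuclear subunits in each library. It varied between replicates with an SD of 0.169.

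**Figure D4:**
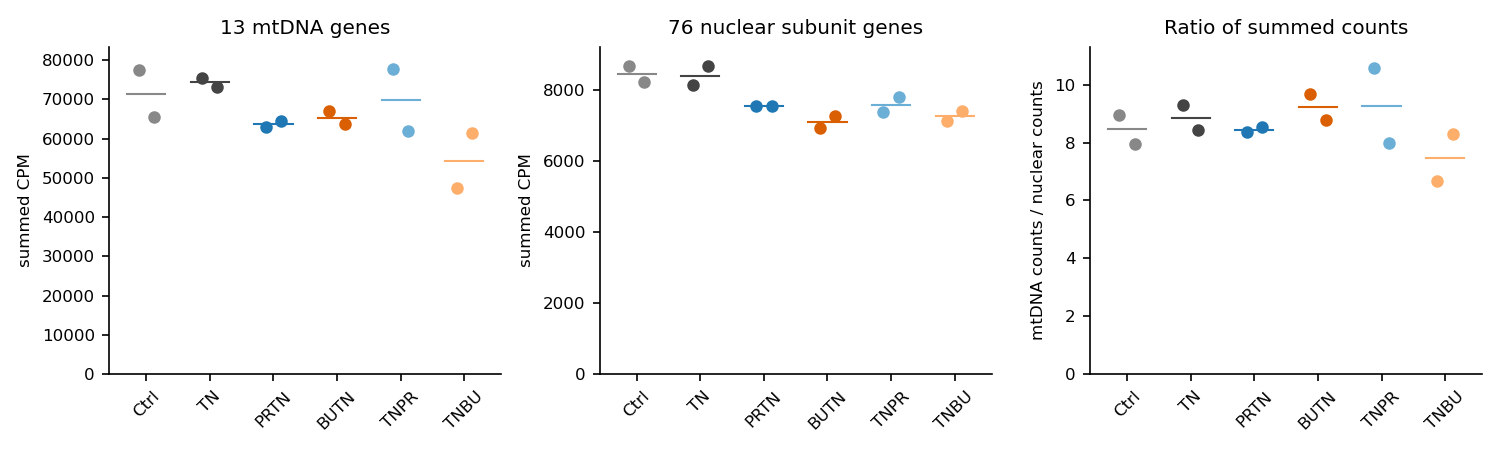
Summed CPM of the 13 mitochondrial and of the 76 nuclear subunit genes and the ratio of their summed counts (y axes) in each of the 12 libraries (x axis, by group); each point is a library and bars mark group means. The nuclear sums are lower with SCFA under TMM scaling (6930.4 to 7782 against 8119.6 to 8677 CPM). They overlap as percentages of all counts, and with TMM once ATP5B is left out. The ratio overlaps throughout.

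Within the mitochondrial counts, the shares of 5 genes shifted by small but separated amounts. Shares are compared across libraries, not between genes of unequal length. MT-CO1 held 28.1% to 29.5% of the mitochondrial protein-gene counts in the 4 libraries without SCFA and 30.8% to 32.5% in the 8 with SCFA. MT-CYB held 5.05% to 5.20% and 5.46% to 5.97%. Going down, MT-ATP6 held 7.42% to 7.90% without and 5.95% to 6.61% with SCFA. MT-ND1 held 5.50% to 5.87% and 4.57% to 5.19%, and MT-ND2 held 6.80% to 7.17% and 5.78% to 6.35%. In these 5 genes the libraries with and without SCFA did not overlap, and in the other 8 they did. Such separation was common in these data. By CPM, 27.6% of all genes tested lay higher and 23.4% lower in all 8 SCFA libraries. These shares add to a whole, so a higher share of MT-CO1 lowers the others.

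**Figure D5:**
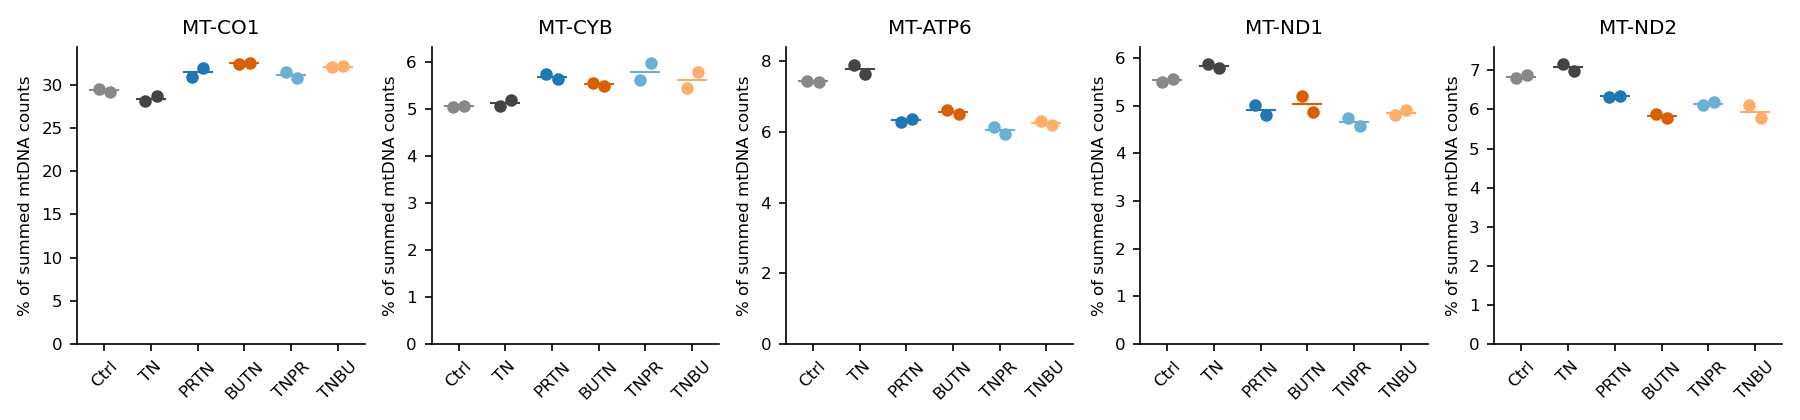
Share of the counts of the 13 mitochondrial protein genes (y axis, percent) held by MT-CO1, MT-CYB, MT-ATP6, MT-ND1 and MT-ND2 in each of the 12 libraries (x axis, by group); each point is a library and bars mark group means. MT-CO1 and MT-CYB are higher and the other 3 lower in every SCFA library, without overlap; MT-CO1 goes from 28.1% to 29.5% to 30.8% to 32.5%.

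Between the SCFA groups themselves no member was called. The doses of propionate and butyrate differed, and butyrate has the longer carbon chain, so PRTN against BUTN and TNPR against TNBU set treatments side by side, not equal doses. limma called 0 of 111 members at either rule in PRTN against BUTN, TNPR against TNBU, TNPR against PRTN and TNBU against BUTN. Over all genes the shares up and down beyond 1.5-fold were 0.0411% and 0.127%, 0% and 0.00822%, 0.0534% and 0.107%, and 0.0945% and 0.173%, in that order, and at any fold 0.238% and 0.337%, 0.00411% and 0.0164%, 0.0822% and 0.181%, and 0.214% and 0.567%. edgeR called 0 in each, DESeq2 called 2, 2, 0 and 3 at any fold change, and 22, 21, 3 and 16 had an unadjusted p under 0.05. In PRTN against BUTN, 21 of those 22 were higher with propionate. NDUFV1 had 183 and 184 CPM in PRTN and 154 and 158 in BUTN (log2 difference 0.23, 95% interval 0.10 to 0.37, adjusted p = 0.109). For NDUFB3 the difference was 0.14 (-0.05 to 0.32), for NDUFA6 -0.19 (-0.35 to -0.03) and for COX6B2 -0.24 (-0.55 to 0.06). These intervals are not adjusted for the number of genes, and they do not show that the 2 treatments act alike. Of the 21 in TNPR against TNBU, 10 were mitochondrial genes that were higher in TNPR, the groups with the widest replicates.

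Against untreated cells, the nuclear subunits called up and down at 1.5-fold were 3 and 9 (PRTN), 2 and 14 (BUTN), 4 and 10 (TNPR), and 3 and 13 (TNBU), where all genes had 22.6% and 16.9%, 22% and 14.9%, 23.6% and 16.8%, and 23.6% and 16.5%. Of the mitochondrial genes 0, 0, 0 and 4 were called down. These contrasts differ from Ctrl in TNF-α as well as in SCFA, and they share the SCFA libraries with those against TN.

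Other genes of the pathway were counted by list, with calls up and down beyond 1.5-fold in PRTN, BUTN, TNPR and TNBU and single values from PRTN. Of 45 other assembly factors these were 8 and 6, 3 and 8, 9 and 6, and 6 and 8, with SDHAF3, which helps to mature the iron-sulfur subunit of complex II, at 1.89 and LYRM7, which delivers the Rieske protein, at 0.87. COA7 and TACO1, both tied to complex IV, were at -1.22 and -0.97. Of 13 genes of coenzyme Q synthesis 1 was up in each (COQ10A at 0.69 in PRTN) and 4, 3, 2 and 3 were down (in PRTN COQ9 at -0.74 and COQ7 at -0.71 the most). Of 14 other chain components and carriers 1 was up in each and 3, 3, 3 and 2 were down. These were led by ETFDH, which feeds electrons from fatty acid oxidation into coenzyme Q, at 1.20, and by the ADP/ATP carrier SLC25A6 at -0.73 and the outer-membrane channel VDAC1 at -0.66.

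SDHAF3 had 9.85 and 7.03 CPM (Ctrl), 9.27 and 8.08 (TN), 33.4 and 30.7 (PRTN), 23.8 and 28.4 (BUTN), 31.3 and 38.5 (TNPR), and 29.0 and 29.9 (TNBU). Its SCFA libraries lay far above the others, while the subunit that it serves, SDHB, differed by at most 0.47 on the log2 scale.

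Of 17 regulators of mitochondrial biogenesis, 2 were up in each contrast and 7, 6, 7 and 7 down. PPARGC1A, which encodes the coactivator PGC-1α, had log2 fold changes of -1.67, -1.74, -1.77 and -1.94 (limma adjusted p = 3.29e-07, 3.16e-07, 2.14e-07 and 1.44e-07). Its relative PPRC1 had -1.31 to -1.26 in the groups given SCFA before TNF-α and -1.47 to -1.46 in those given it after. PPARD, a nuclear receptor of fatty acids, was higher by 1.43 to 1.65. Of 17 genes of mitochondrial DNA transcription and replication 2 were up in each and 3, 3, 2 and 4 were down, in PRTN with POLG2 at 1.09 and TFB1M at 0.71, and LONP1 at -0.77 and TFB2M at -0.72. TFAM, which packages mitochondrial DNA and was looked at after its values were known, had -0.06 to 0.12 and was not called. Of 21 genes of mitochondrial RNA processing 0, 0, 2 and 0 were up and 5, 7, 5 and 6 down, in PRTN FASTKD2 (-1.23) and FASTKD1 (-0.86) the most. Of 78 mitochondrial ribosomal proteins 5, 4, 9 and 6 were up and 12, 13, 14 and 15 down. In PRTN MRPL15 (-1.45) and MRPL9 (-1.40) fell most, and MRPL41 (0.96) and MRPL57 (0.87) rose most. The background for all these lists in PRTN was 23.9% up and 16.7% down.

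RefSeq promoters of 280 bases were at hand for 62 of the 76 nuclear subunits, and a few letters known from respiratory genes were searched for on both strands. The NRF1 site, 10 letters with 1 free base, was in 15 of 62 (24.2%), against 6.88% of 27305 promoters of the same length. The ETS core CCGGAAG was in 20 (32.3% against 11.8%), the YY1 site AAGATGGC in 9 (14.5% against 2.99%) and TATAAA in 6 (9.68% against 13.6%). These shares describe the family as a whole and not its response to SCFA. Among the 4 promoters of subunits called up in any SCFA contrast the counts were 1, 1, 0 and 0, among the 12 of those called down 2, 4, 2 and 2, and among the 46 without a call 12, 15, 7 and 4. UQCRFS1 held the NRF1 letters and COX6B1 the ETS letters, whereas the windows of NDUFA6, NDUFB3 and COX6B2 held none of the 4 motifs in full. The NDUFA6 window ends within a YY1 match that runs past its edge and lies whole in the window of the divergent NDUFA6-DT. All 10 NRF1 letters, with no free base, were in 4 of the 62 promoters and in 0 of the 12 called down. The 62 promoters held a median of 21.5 CG dinucleotides, against 15 over all promoters, and the NRF1 letters themselves contain CG.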

How the data were processed

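RNA of 12 HK2 libraries was measured by stranded mRNA sequencing. The authors deposited expected counts per gene, which they made with STAR 2.6.1a (FastQC 0.11.5 for quality, per the submitters' processing notes) and RSEM on GRCh38 with GENCODE release 26. Its version and strand setting are not given in the sources used here. These estimated counts were not scaled or filtered before deposit. RSEM divides reads that fit several genes, so values of near-identical copies are uncertain. Many members also overlap another annotated gene, for instance NDUFS3 with PTPMT1 and NDUFC1 with MGARP on the same strand. The division of reads between such genes was not tested.

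The members and gene lists were chosen with earlier results of these data known. Genes with a geometric mean count (1 added, then subtracted) of at least 1 were kept, 24342 of 58278. Counts were scaled by TMM (edgeR 4.0.16) and given voom weights, and limma 3.58.1 (R 4.3.3) then took a mean for each of 6 groups over all 12 libraries, with 6.12 prior degrees of freedom. P-values were adjusted by Benjamini and Hochberg over all genes kept. A call needed a change beyond 1.5-fold with its adjusted p under 0.05. A second rule took any fold change. The same code was checked on simulated counts. Depth was 27269986 to 33851130 counts per library.

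Named with values were the mitochondrial genes, complex II and CYC1, the isoform and assembly genes, the 3 largest rises and falls of nuclear members called per contrast at 1 CPM or more, and the 2 largest rises and falls of each pathway list in PRTN. Other genes named were chosen after their values were seen. A marker of the proximal tubule list is not reported here and was left out of its count and sum. Positions came from GENCODE release 44 (115 of 115 members matched) and promoters from RefSeq for GRCh38.p14. Alternatives were edgeR's quasi-likelihood test, DESeq2 1.42.0 (both on rounded counts), other scalings and filters, only the groups compared, the replicate number as a block, other fold limits, and leaving out each library.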

Additional observations from a re-analysis of the deposited data

How the results depend on the processing

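The number of nuclear subunits called moved with the scaling and the fold limit, and that of mitochondrial genes with single libraries; the causes were not tested beyond the scaling and the limits themselves. Up and down calls of nuclear subunits in PRTN, BUTN, TNPR and TNBU were 11 and 5, 4 and 6, 13 and 6, and 9 and 4 with library size alone, and 9 and 5, 4 and 6, 14 and 6, and 9 and 5 with library size computed without mitochondrial genes. With the latter scaling, the shares of all genes up and down were 27.7% and 12.9%, 27.003% and 10.9%, 29.97% and 12.7%, and 29.6% and 12.1%. The subunits' calls were under these shares in both directions. With TMM scaling at any fold change the subunits' calls were 18 and 31, 13 and 38, 19 and 33, and 17 and 33, and at a fold change over 2 they were 0 and 2, 0 and 0, 1 and 1, and 0 and 1. No shares of all genes are given at a fold change over 2 or beside the ranges with a library left out. In BUTN, 2 were up with DESeq2 and with relative log expression size factors. Mitochondrial genes called down at any fold were 6, 4, 6 and 12. In TNBU 1 was down with library size alone, 2 with library size without mitochondrial genes and 0 at a fold change over 2, and in PRTN 1 was down without the low-count filter, with edgeR's default filter and with only the groups compared.

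Leaving out 1 library at a time, nuclear subunits up ranged over 2 to 7, 1 to 2, 1 to 7 and 2 to 7 in the same order, and those down over 11 to 14, 12 to 14, 11 to 15 and 12 to 16. Mitochondrial genes down ranged over 0 to 2, 0 to 0, 0 to 4 and 4 to 11, and the difference of the medians over -0.29 to -0.05, -0.13 to 0.04, -0.35 to 0.17 and -0.51 to -0.27. In TN against Ctrl each count stayed at 0 and the difference ran from 0.01 to 0.16. A lone library of a group was assumed to vary as the other groups do.

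With the replicate number as a block, the calls up and down were 5 and 11 (PRTN), 1 and 11 (BUTN), 6 and 11 (TNPR), and 4 and 11 (TNBU), as without it. The numbers did not pair the libraries: same-numbered libraries had correlations of deviations of -0.079 to 0.240 over 15 pairs of groups, of which 1 was over 0.1. Over the tested members and 5 contrasts (TN against Ctrl and each SCFA group against TN), under the settings other than leaving out a library, called values stayed called in the same direction 761 times, lost the call 70 times and reversed 0 times. Values without a call gained one 74 times, and 181 times turned sign without being called. When a library was left out, these numbers were 333, 37, 0, 66 and 146. With 2 libraries a group, the spread within a group is known poorly, and isoform genes with few counts were near the limit of detection.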

Other observations

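Values outside the comparisons concern what lies beside the members. The 2 ribosomal RNAs of mitochondrial DNA, which are reduced by selection for polyadenylated RNA, were read after their values were known. MT-RNR2 had 8499.8 to 10484 CPM without SCFA and 7593 to 12048 CPM with SCFA, and its log2 fold changes against TN were 0.02, 0.04, 0.04 and -0.33 in PRTN, BUTN, TNPR and TNBU. The last of these had a limma adjusted p of 0.0142. MT-RNR1 had log2 fold changes of 0.07, -0.08, -0.35 and -0.70, and the last was called beyond 1.5-fold (limma adjusted p = 0.0102). MT-RNR2 was lowest in TNBU replicate 1 and highest in TNPR replicate 1, and MT-RNR1 was lowest in TNBU replicate 2 and highest in PRTN replicate 1.

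Nuclear copies of mitochondrial genes, 392 rows, held 1.09% to 1.31% as many counts as the 13 mitochondrial protein genes. The pseudogenes of nuclear subunits left out by name (75 of 154 with at least 1 count) held 0.222% to 0.311% as many counts as the 76 nuclear subunits. How reads were divided between genes and these copies was not tested.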
